A study of Mus musculus with 24 samples.

Results

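The genes of cytosolic translation initiation and elongation were examined in mouse liver under methionine restriction (MR). They were chosen by symbol: each row of the count table whose symbol starts with Eif1 to Eif6, Eef1 or Eef2, pseudogene symbols left out. This gave 65 of the 15161 genes in the table, and 63 of them passed the filter on low counts, as did 13441 genes in all. Eef1a2 and Eef1akmt3 did not pass. The repressors of the cap-binding protein (Eif4ebp genes) and the eIF2 alpha kinases (Eif2ak genes) meet the same rule and are described as regulators. Eif4ebp3 was not analysed here.

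RNA-seq read counts came from 24 liver libraries of male C57BL6/J mice aged 4 months, in 4 groups of 6. The elemental control and elemental MR groups were fed free amino acids as the protein source, with 0.86% and 0.17% methionine. The casein control group was fed casein with 0.86% methionine, and the casein MR group was fed oxidized casein with 0.17% methionine. The control casein is not labelled as oxidized, so casein oxidation and the lower methionine of the casein MR diet cannot be told apart. The labels do not say outright that each library is a separate mouse, so the p-values reflect only how these libraries vary, which may be technical. Library names hold the protein source (E or C), the diet (C or MR) and a number. Library totals ran from 13.5 to 20.8 M reads.

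Initiation begins when eIF2 carries the initiator methionine tRNA to the small ribosomal subunit, which eIF1, eIF1A, eIF5 and the large scaffold eIF3 help to prepare. The cap-binding factor eIF4E, the helicase eIF4A and the scaffold eIF4G bring the mRNA, and 4E-BP proteins block eIF4E when the nutrient-sensing kinase mTORC1 is inactive. Amino acid shortage also activates the eIF2 alpha kinase GCN2 (Eif2ak4), and phosphorylated eIF2 inhibits its own exchange factor eIF2B. Elongation is carried by eEF1A, which delivers aminoacyl-tRNAs, by its exchange factor eEF1B, and by the translocase eEF2. Both eIF2 and the 4E-BPs are controlled mainly through phosphorylation, which RNA counts do not measure.

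The bases around the annotated start codon are shown first for the genes whose RNA changed most firmly and for 2 relatives used for comparison, because recognition of the start codon is the step that eIF2, eIF1 and eIF5 carry out. Each run gives 12 bases before the start codon, the start codon in capitals, and 4 bases after it, in the mRNA's direction with T for U, read from GENCODE M21 transcripts.
Eif4ebp1: cgtgcaggagacATGtcgg
Eif4g2: caagccgccaaaGTGgaga
Eif4g1: gcaccaaatgaaATGaaca
Eif2s2: cgaactacagccATGtccg
Eif5: taataagccaaaATGtctg
Eif1: gaatcgtatcgtATGtccg
Eef1b2: ccagccttcgccATGggat
Eif4g2, a relative of the eIF4G scaffolds that lacks the eIF4E-binding region, starts at GTG in the annotation. It was the 1 of 63 tested members without an ATG start, and 5 of the 11800 tested genes with an annotated start had none (0.0424%). Eif1 has neither a purine at the third base before the start codon nor a G directly after it, the pair of positions that define a strong Kozak context. Eef1b2 has both. Over the set, 32 of 63 members had both (50.8%, against 46.1% of all genes) and 4 had neither (6.35%, against 5.97%). These shares describe the annotation and were not compared with the expression changes.

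Under MR, a small number of translation factor mRNAs rose by modest amounts, fewer fell, and most were not called. How many were called depended on the scaling of the libraries, described below. Called falls reached -0.69 on the log2 scale for Eif4e3 with casein and -0.52 for Eef1akmt1 with elemental amino acids. Eif4ebp1 rose most firmly, followed by Eif4g2 and Eif2s2, and Eif5, Eif3a, Eif3c, Eef1b2 and Eef1g also rose with either protein source. Differences are log2 fold changes with their standard errors (SE) from edgeR's quasi-likelihood test, with p-values adjusted over all 13441 genes. With elemental amino acids, 11 of 63 members were called at an adjusted p under 0.05 (17.5%), against 13.4% of all genes tested. Of these, 10 were higher under MR (15.9% of members, 6.78% of all genes) and only Eef1akmt1 was lower (1.59% of members, 6.64% of all genes). With casein, 14 of 63 were called (22.2%), against 23.3% of all genes. Here 10 were higher (15.9% of members, 10.6% of all genes) and 4 were lower (6.35% of members, 12.7% of all genes). The share called in either direction was near the background with both protein sources. MR libraries lay above all control libraries for 6 members with elemental amino acids (9.52%, against 3.25% of all genes) and for 5 with casein (7.94%, against 4.81%). No member had all MR libraries below the controls, as 3.59% and 6.2% of all genes did.

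The rises overlapped between the protein sources, whose MR comparisons have no library in common. Eef1b2, Eef1g, Eif2s2, Eif3a, Eif3c, Eif4ebp1, Eif4g2 and Eif5 rose in both comparisons, which is 8 of 63 members (12.7%, against 4.31% of all genes). They made up 80% of the members that rose in each comparison. The casein calls of Eif3a and Eif3c and the elemental call of Eef1g were lost in some alternative fits, given below. Over all genes, the shared rises were 63.6% of those with elemental amino acids and 40.6% of those with casein. No member was called in opposite directions and none fell in both comparisons. Of all 13441 genes tested, 11 were called in opposite directions and 681 fell in both. These are small shares, so finding none among so few members does not show that the set differs.

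The changes were small in size. No member changed 2-fold in either MR comparison, while 423 and 726 of the 13441 genes tested did so with elemental amino acids and casein. That is a small share of all genes, so finding none among so few members does not show that the set differs. Log2 changes of the members ran from -0.52 to 0.68 with elemental amino acids and from -0.69 to 0.72 with casein, and the median was 0.04 in each. The median absolute log2 change was 0.13 with elemental amino acids, against 0.16 over all genes. With casein it was 0.09, against 0.18. The 95% interval lay within 1.5-fold in either direction for 55 members with elemental amino acids and 56 with casein (87.3% and 88.9%), against 63.6% and 59.1% of all genes. Interval width and the spread of estimates depend on read level. All genes were not matched to the members for it, so these contrasts may reflect level.

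**Figure D1:**
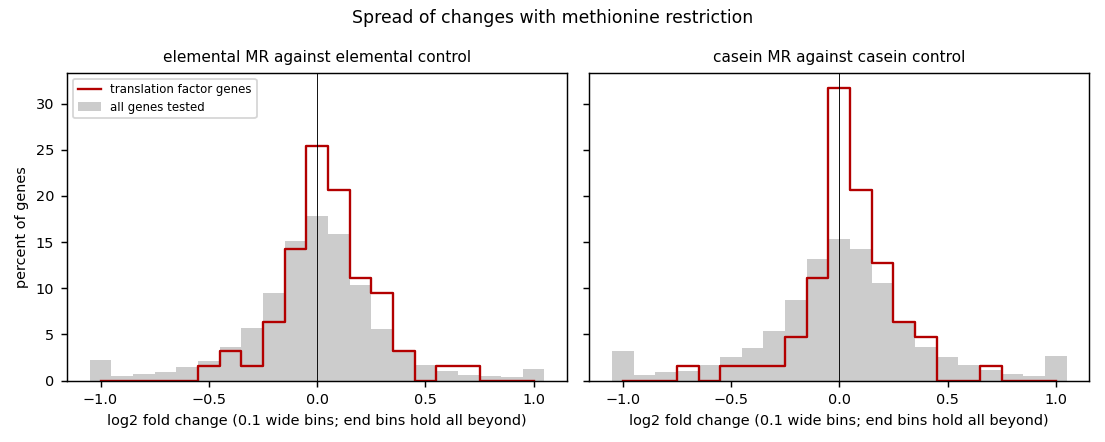
Distribution of log2 fold changes under MR for the 63 translation factor genes (red line) and all 13441 genes tested (grey bars), as percent of genes per bin, with elemental amino acids (left) and casein (right). The translation factors lie closer to 0, with a median absolute log2 change of 0.13 and 0.09 against 0.16 and 0.18 for all genes, which were not matched for read level.

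The scaling of the libraries bears on directions. TMM scaling (trimmed mean of M values) sets changes relative to the typical gene, and under it the median log2 change of all genes was -0.003 with elemental amino acids and 0.01 with casein. Scaling by library totals only, an alternative added after seeing the data, moved these medians to 0.137 and 0.267. It called 29 members (28 higher, 1 lower) with elemental amino acids, which is 46% of members against 24.8% of all genes. With casein it called 51 (50 higher, 1 lower), 81% of members against 48.4% of all genes. On the plain share of reads, the 65 genes took 0.571 ± 0.0231% (SD, n = 6) in the elemental control and 0.706 ± 0.0211% in the elemental MR group. They took 0.56 ± 0.0233% in the casein control and 0.722 ± 0.0247% in the casein MR group. In CPM (counts scaled to an equal TMM-scaled library size, per 1 M reads), their sum was 6097 ± 138 and 6841 ± 213 with elemental amino acids and 6026 ± 223 and 6495 ± 166 with casein. All 8 members that rose with both protein sources also rose under library totals. This scaling moved the values of all members up under MR, so that outcome was fixed in advance and adds no support.

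A list of 10 hepatocyte markers, all of them tested, moved with MR. Its summed level was 108544 to 119160 CPM in the elemental control and 86657 to 93595 CPM in the elemental MR group, where 3 of 10 fell. With casein the sum was 100443 to 116049 CPM in the control and 62600 to 70592 CPM under MR, where 9 of 10 fell. Other marker lists moved as well. The summed level of 6 cholangiocyte markers was 36.1 to 58.9 CPM in the elemental control and 20.6 to 33.5 CPM in elemental MR, where 1 of 5 tested fell. With casein it was 42.8 to 82.5 CPM and 24.1 to 46.8 CPM, and 3 fell. The 10 stellate cell and fibroblast markers summed to 391 to 469 CPM and 331 to 386 CPM with elemental amino acids, where 2 fell. With casein their sums overlapped (medians 436 and 383 CPM), and 1 rose. The control and MR sums overlapped for the Kupffer cell, endothelial, lymphocyte and neutrophil, and erythroid lists. Erythroid medians were 5972 CPM in the elemental control and 2788 CPM in elemental MR, and 2747 and 1710 CPM with casein. In the erythroid list 1 marker fell in each comparison, as did 1 lymphocyte and neutrophil marker. Of the endothelial markers, 1 rose with elemental amino acids and 1 fell with casein. No Kupffer cell marker was called. The part of these lists in the translation factor results was not tested, and in whole tissue fewer cells of a type and less RNA per cell cannot be told apart.

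**Figure D2:**
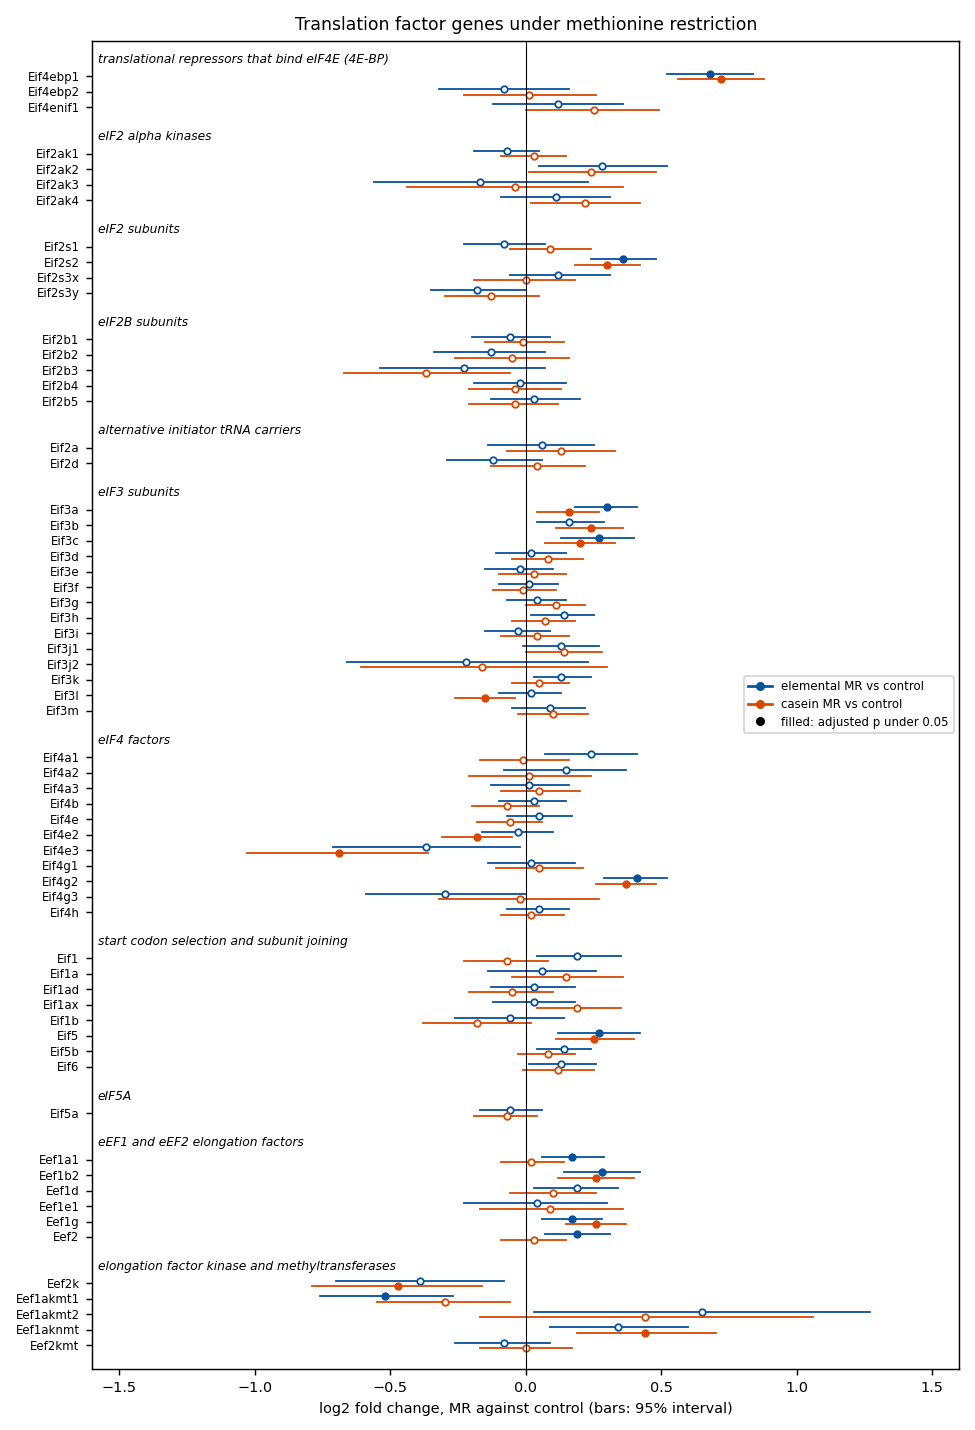
Log2 fold change under MR (horizontal axis, bars show the 95% interval) for each of the 63 tested translation factor genes, grouped by role, with elemental amino acids in blue and casein in orange. Filled points have an adjusted p under 0.05; Eif4ebp1, Eif4g2 and Eif2s2 lie to the right with both protein sources, and the 5 eIF2B subunits lie near or left of 0 with open points.

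Among the genes of repressors that bind eIF4E, Eif4ebp1 was called on the TMM scale, and Eif4ebp2 and Eif4enif1 were not. Eif4ebp1 (ENSMUSG00000031490) encodes 4E-BP1, which binds eIF4E and keeps eIF4G from joining it. Its level was 46.1 to 59.4 CPM (median 49.3) in the elemental control and 73.1 to 91.3 CPM (median 81.3) in the elemental MR group. In the casein control it was 48.7 to 55.1 CPM (median 51.1), and in casein MR 72.7 to 95.3 CPM (median 82.9). Every MR library lay above every control library with either protein source. The rise was 0.68 ± 0.08 (SE) with elemental amino acids (edgeR adjusted p = 7.29e-07) and 0.72 ± 0.08 with casein (7.89e-08). The effects with the 2 protein sources differed by 0.03 on the log2 scale, with a 95% interval from -0.19 to 0.26. Under library totals the rises were 0.82 and 0.98.

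Eif4ebp2, the second 4E-BP, ranged from 76.2 to 101 CPM (median 83.8) in the elemental control and from 47.5 to 103 CPM (median 85.6) in elemental MR. Its range in the casein groups was 64 to 79.6 CPM (median 74.4) and 64.2 to 83.5 CPM (median 73.8). The groups overlapped, and the changes were -0.08 ± 0.12 (adjusted p = 0.739) and 0.01 ± 0.12 (0.956). Eif4enif1, which encodes the eIF4E transporter, was not called (0.12 and 0.25), but was called with casein under library totals (0.50).

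Eif4e itself, the target of the 4E-BPs, kept overlapping levels. It ranged from 35.1 to 39.3 CPM (median 37.8) and from 33.4 to 43.6 CPM (median 39.5) with elemental amino acids. In the casein groups it ranged from 36 to 40 CPM (median 38.8) and from 34 to 40.1 CPM (median 37.1). Its changes were 0.05 ± 0.06 (adjusted p = 0.636) and -0.06 ± 0.06 (0.524), and under library totals the casein value turned to 0.20. A ratio of levels per kilobase of exon does not depend on the scaling of the library. The ratio of Eif4ebp1 to Eif4e was 3.32 to 4.36 in the elemental control and 4.59 to 6.92 in elemental MR. With casein it was 3.38 to 4.01 in the control and 5.31 to 7.27 under MR. These ranges did not overlap between control and MR with either protein source; they describe RNA and were not tested.

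**Figure D3:**
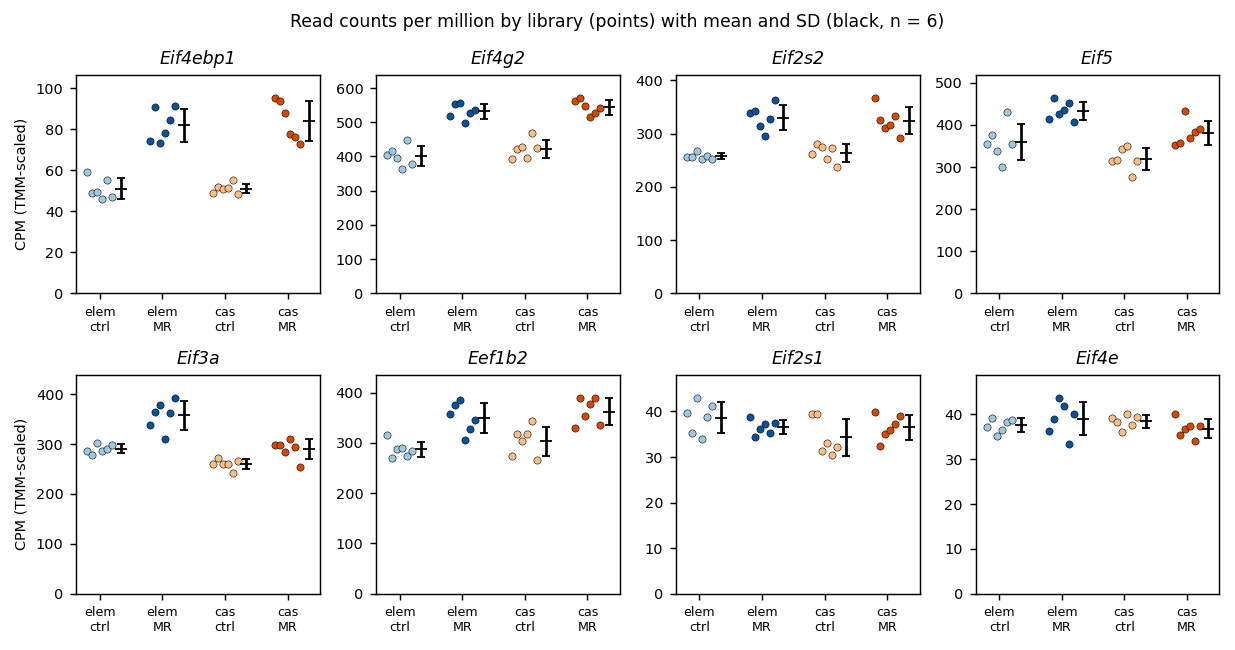
CPM on the TMM scale (vertical axes from 0) of 8 translation factor genes in each library (points) of the 4 diet groups (elem, elemental; cas, casein; ctrl, control), with the mean and SD of 6 libraries beside them. Eif4ebp1, Eif4g2 and Eif2s2 show no overlap between MR and control libraries, while Eif2s1 and Eif4e overlap.

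Of the remaining eIF4 factors, Eif4g2 rose and the core cap-binding machinery was mostly not called. The product of Eif4g2 (ENSMUSG00000005610), DAP5, supports initiation on some mRNAs without eIF4E. Eif4g2 ranged from 364 to 449 CPM (median 401) in the elemental control and from 499 to 557 CPM (median 533) in elemental MR. Under casein its levels ran from 394 to 468 CPM (median 423) and from 514 to 571 CPM (median 546). Control and MR libraries did not overlap with either source. Eif4g2 rose by 0.41 ± 0.05 with elemental amino acids (edgeR adjusted p = 7.46e-06) and by 0.37 ± 0.05 with casein (8.46e-06).

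Eif4g1, the main eIF4G scaffold, was not called. It ranged from 289 to 367 CPM (median 345) and from 282 to 382 CPM (median 348) with elemental amino acids, and from 268 to 354 CPM (median 324) and from 303 to 359 CPM (median 330) with casein. Its changes were 0.02 ± 0.08 (adjusted p = 0.925) and 0.05 ± 0.08 (0.721), and under library totals the casein value was a called 0.30. Per kilobase, the ratio of Eif4g2 to Eif4g1 was 0.864 ± 0.0912 (SD, n = 6) in the elemental control and 1.14 ± 0.156 in elemental MR. With casein it was 0.967 ± 0.155 and 1.2 ± 0.102.

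Eif4a1 and Eif4a2 encode the eIF4A helicases. Eif4a1 ranged from 38.8 to 48.8 CPM (median 43.8) in the elemental control and from 46.2 to 61.8 CPM (median 50.3) in elemental MR, a change of 0.24 ± 0.08 that missed the threshold (adjusted p = 0.0575). With casein it ranged from 41.8 to 59.7 CPM (median 46) and from 42 to 54.2 CPM (median 49.1), a change of -0.01 ± 0.08 (0.973) that became 0.26 under library totals. Eif4a2 changed by 0.15 ± 0.11 (adjusted p = 0.433) and 0.01 ± 0.11 (0.957), and its ranges overlapped in each pair.

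The eIF4E homologues Eif4e2 and Eif4e3 were lower in casein MR. Eif4e3 ranged from 9.47 to 19.3 CPM (median 11.7) in the casein control and from 7.4 to 10.3 CPM (median 7.47) in casein MR. It fell by 0.69 on the log2 scale (SE 0.16, edgeR adjusted p = 0.00206), with overlapping groups. The highest casein MR value came from library C_MR_3438, and without that library the change was -0.78. In the elemental groups it ranged from 6.82 to 11.1 CPM (median 8.47) and from 5.61 to 8.69 CPM (median 6.65), a change of -0.37 ± 0.17 (adjusted p = 0.16). Eif4e2, whose product represses the translation of some mRNAs, ranged from 41.7 to 53.9 CPM (median 47.8) in the casein control and from 37.3 to 46.2 CPM (median 43.3) in casein MR. It fell by 0.18 (SE 0.06, adjusted p = 0.0386) on the TMM scale and stood at 0.08, not called, under library totals. That call held in 14 of 24 fits that each left out 1 library, and the adjusted p reached 0.14 without library C_C_3413. The 24 fits cover all 4 groups. Here and below, those that left out a library of a group not compared bear less directly on a call. The other 4 eIF4 factors (Eif4a3, Eif4b, Eif4g3 and Eif4h) were not called in either comparison.

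Of the eIF2 subunits, the beta subunit alone was called on the TMM scale. Eif2s2 (ENSMUSG00000074656) encodes eIF2 beta. It ranged from 252 to 268 CPM (median 256) in the elemental control and from 295 to 364 CPM (median 333) in elemental MR. With casein it ranged from 237 to 281 CPM (median 268) in the control and from 291 to 367 CPM (median 322) under MR. Again no MR library fell within its control range. Eif2s2 rose by 0.36 ± 0.06 (edgeR adjusted p = 8.95e-05) and by 0.30 ± 0.06 (0.00027).

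Eif2s1 encodes the alpha subunit, which carries the regulatory phosphorylation site. It ranged from 34 to 42.9 CPM (median 39.2) and from 34.5 to 38.8 CPM (median 36.7) with elemental amino acids, and from 30.4 to 39.5 CPM (median 32.7) and from 32.4 to 39.9 CPM (median 36.6) with casein. The groups overlapped, with changes of -0.08 ± 0.07 (adjusted p = 0.545) and 0.09 ± 0.07 (0.409). The gamma subunit has an X-linked gene and a Y-linked gene in mice, Eif2s3x and Eif2s3y. Eif2s3x medians were 11.1 and 11.8 CPM in the elemental control and MR groups and 11.3 and 11.2 CPM in the casein ones. Eif2s3y medians were 21 and 18.6 CPM, and 20 and 19 CPM. Neither was called (adjusted p from 0.187 to 0.988), but under library totals Eif2s1 and Eif2s3x were called with casein at 0.35 and 0.25, and Eif2s3x with elemental amino acids at 0.26 (0.0495).

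Beta subunit RNA was the most abundant of the complex per length in every group. The per-kilobase ratio of Eif2s2 to Eif2s1 was 4.91 ± 0.387 (SD, n = 6) in the elemental control, 6.63 ± 0.547 in elemental MR, 5.67 ± 0.681 in the casein control and 6.52 ± 0.615 in casein MR. The elemental ranges did not overlap (4.5 to 5.42 and 5.79 to 7.26). The casein ranges did (4.87 to 6.59 and 5.47 to 7.37).

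The 5 subunits of eIF2B, the exchange factor that reloads eIF2 with GTP, were not called in either comparison. Their changes lay between -0.23 and 0.03 with elemental amino acids and between -0.37 and -0.01 with casein. Eif2b3, the gamma subunit, had the lowest value in each. It ranged from 5.47 to 8.85 CPM (median 7.38) and from 4.79 to 7.1 CPM (median 6.18) in the elemental groups, and from 6.08 to 9.8 CPM (median 7.23) and from 4.77 to 8.35 CPM (median 5.65) in the casein groups. Its changes were -0.23 ± 0.15 (adjusted p = 0.345) and -0.37 ± 0.15 (0.0739). Eif2b1, Eif2b2, Eif2b4 and Eif2b5 had adjusted p-values from 0.436 to 0.926 with elemental amino acids and from 0.767 to 0.962 with casein. Under library totals Eif2b1, Eif2b4 and Eif2b5 turned from just below 0 to called rises with casein (0.25, 0.22 and 0.21).

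**Figure D4:**
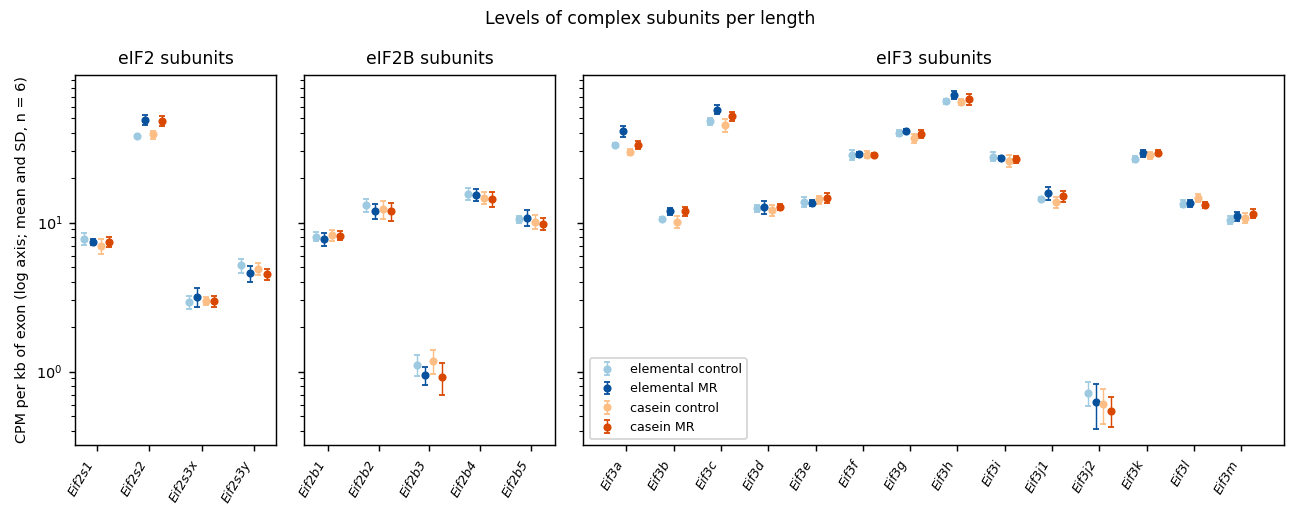
Level of each subunit of eIF2, eIF2B and eIF3 in CPM per kilobase of exon (log axis), as the mean and SD of 6 libraries in each of the 4 diet groups. Eif2s2 stands above the other eIF2 subunits in every group, and Eif2b3 and Eif3j2 are the lowest of their complexes.

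None of the 4 eIF2 alpha kinases was called. Eif2ak4 (GCN2), which senses uncharged tRNA, ranged from 6.41 to 8.44 CPM (median 6.96) and from 7.28 to 9.05 CPM (median 7.31) with elemental amino acids, a change of 0.11 ± 0.10 (adjusted p = 0.509). With casein it ranged from 5.78 to 7.58 CPM (median 6.59) and from 6.89 to 9.15 CPM (median 7.66), a change of 0.22 ± 0.10 (0.118). Eif2ak2 (PKR), the kinase activated by double-stranded RNA, changed by 0.28 ± 0.11 (0.107) and 0.24 ± 0.11 (0.125), from medians of 8.57 to 11.1 CPM and 9.51 to 10.3 CPM. Eif2ak1 (HRI), the heme-regulated kinase, had medians of 45.3, 42.2, 42.5 and 44.9 CPM and changes of -0.07 ± 0.06 and 0.03 ± 0.06. Eif2ak3 (PERK), the endoplasmic reticulum stress kinase, had medians of 4.69, 4.3, 4.54 and 4.29 CPM and changes of -0.17 ± 0.19 and -0.04 ± 0.19. Under library totals Eif2ak1, Eif2ak2 and Eif2ak4 were called higher with casein (0.29, 0.50 and 0.47), and Eif2ak2 was called higher with elemental amino acids (0.42).

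Within eIF3, the complex that scaffolds the small subunit, the rises were in Eif3a, Eif3b and Eif3c, its largest subunits. Of 14 eIF3 genes tested, 2 rose and none fell with elemental amino acids, and 3 rose and 1 fell with casein. Over all genes, 13.4% were called with elemental amino acids and 23.3% with casein. So few calls among 14 genes do not show that eIF3 differs from other genes. Eif3a ranged from 278 to 303 CPM (median 288) in the elemental control and from 310 to 392 CPM (median 364) in elemental MR, with no overlap. It rose by 0.30 ± 0.06 (edgeR adjusted p = 0.000496). In the casein groups it ranged from 242 to 273 CPM (median 261) and from 254 to 311 CPM (median 296), which overlap. There it rose by 0.16 ± 0.06 (0.0434), a call that held in 17 of 24 fits with 1 library left out and reached 0.103 without library C_MR_3431. Every fit that lost it left out a library of the casein groups.

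Eif3b ranged from 33.7 to 37.2 CPM (median 35.5) and from 36.6 to 42.3 CPM (median 40.3) with elemental amino acids, a change of 0.16 ± 0.06 that missed the threshold (adjusted p = 0.0715). With casein it ranged from 28.7 to 37.3 CPM (median 34.1) and from 34.9 to 42 CPM (median 40.7) and rose by 0.24 ± 0.06 (0.00443). Eif3c rose by 0.27 (adjusted p = 0.00573), from a median of 166 to 200 CPM, and by 0.20 (0.0236), from 160 to 181 CPM. The casein call of Eif3c was lost in 2 of 24 fits with 1 library left out, with an adjusted p of 0.072 without library C_MR_3433. It was also lost with only the 2 groups fitted (0.0613). Eif3l was the member that fell, by 0.15 with casein (0.0494). Its call held in only 6 of the 24 fits and in only 2 of 9 fits with other settings. The remaining eIF3 genes, Eif3d to Eif3k and Eif3m, were not called in either comparison.

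Among the factors of start codon selection and subunit joining, 1 of 8 was called in each comparison, and it was Eif5. With 13.4% and 23.3% of all genes called, 1 call among 8 genes does not set this role apart. Its product makes eIF2 hydrolyse GTP once the start codon is found. It ranged from 301 to 430 CPM (median 354) in the elemental control and from 407 to 464 CPM (median 432) in elemental MR, and rose by 0.27 ± 0.07 (edgeR adjusted p = 0.011) with overlap. In the casein groups it ranged from 276 to 351 CPM (median 316) and from 353 to 432 CPM (median 377), with no overlap, and rose by 0.25 ± 0.07 (0.0095). Eif5b, the subunit-joining GTPase, ranged from 247 to 281 CPM (median 273) in the elemental control and from 281 to 321 CPM (median 293) in elemental MR, ranges that meet only through rounding. Its change of 0.14 ± 0.05 missed the threshold (0.0618).

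Eif1, which guards against wrong start codons, had opposite signs in the 2 comparisons without a call in either (0.19 with adjusted p = 0.0833, and -0.07 with 0.531). Its difference between the MR effects was -0.27 ± 0.10, with an adjusted p of 0.234. Eif6, which keeps the large subunit from joining early, ranged from 35.5 to 41.4 CPM (median 40.7) and from 40.3 to 49.7 CPM (median 43.4) with elemental amino acids, and changed by 0.13 ± 0.06 (0.168). With casein it ranged from 38.3 to 43.3 CPM (median 40.3) and from 40.1 to 50.1 CPM (median 42.7), a change of 0.12 ± 0.06 (0.187). Eif5a, the hypusine-bearing factor that helps ribosomes past stalling sequences, had medians of 187, 189, 181 and 175 CPM. Its changes were -0.06 ± 0.06 (0.564) and -0.07 ± 0.06 (0.4), and under library totals the casein value was a called 0.18. Eif2a and Eif2d, which can carry initiator tRNA without eIF2, were not called.

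Elongation factors led the members in level per length. Averaged over the 24 libraries, Eef1a1 stood at 244, Eef2 at 206 and Eef1b2 at 129 CPM per kilobase of exon, followed by Eif1 at 114. Eef1b2 and Eef1g, which encode subunits of the exchange factor, rose with both protein sources. Eef1b2, the beta subunit of eEF1B, ranged from 270 to 315 CPM (median 286) and from 306 to 385 CPM (median 352) with elemental amino acids and rose by 0.28 ± 0.07 (edgeR adjusted p = 0.00487). With casein it ranged from 266 to 343 CPM (median 310) and from 330 to 389 CPM (median 366) and rose by 0.26 ± 0.07 (0.00547). The groups overlapped slightly in each. Eef1g, the gamma subunit, ranged from 59.2 to 67 CPM (median 62.7) in the casein control and from 67.2 to 78.4 CPM (median 76) in casein MR, without overlap, and rose by 0.26 ± 0.06 (0.00084). In the elemental groups it ranged from 62.7 to 68 CPM (median 66.9) and from 66.8 to 83.1 CPM (median 73.4) and rose by 0.17 ± 0.06 (0.0403). That elemental call held in 17 of 24 fits with 1 library left out and reached 0.117 without library E_MR_3405. Every fit that lost it left out a library of the elemental groups. Eef1d, the delta subunit, was not called (0.19 with adjusted p = 0.115, and 0.10 with 0.402), but was called under library totals (0.33 and 0.36).

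Eef1a1 and Eef2 were called with elemental amino acids and not with casein on the TMM scale, while under library totals both were called with casein too (0.28 and 0.29). Eef1a1 encodes the main eEF1A of liver. It has many near-identical processed pseudogenes, and how the counting treated reads shared with them is not given in the sources used here. It ranged from 558 to 666 CPM (median 576) in the elemental control and from 615 to 713 CPM (median 653) in elemental MR. It rose by 0.17 ± 0.06 (adjusted p = 0.0446). In the casein groups it ranged from 548 to 649 CPM (median 581) and from 540 to 641 CPM (median 608), a change of 0.02 ± 0.06 (0.817). Eef2, the translocase, ranged from 619 to 730 CPM (median 658) and from 715 to 836 CPM (median 744) with elemental amino acids and rose by 0.19 ± 0.06 (0.0303). Its casein ranges were 588 to 739 CPM (median 660) and 615 to 702 CPM (median 683), a change of 0.03 ± 0.06 (0.754). The difference between the 2 effects was not called for either gene: -0.15 with an interval from -0.31 to 0.02 for Eef1a1, and -0.16 with an interval from -0.32 to 0.01 for Eef2. The Eef1a1 call was lost in 12 of 24 fits with 1 library left out (adjusted p up to 0.106, without library E_MR_3416) and under upper quartile scaling (0.0635). The Eef2 call was lost in 5 of 24 (up to 0.0885, without library E_MR_3405). All of these fits, and most of those that lost the Eef1a1 call, left out a library of the elemental groups. The per-kilobase ratio of Eef2 to Eef1a1 was 0.847 ± 0.0355, 0.856 ± 0.0495, 0.837 ± 0.0343 and 0.843 ± 0.0262 (SD, n = 6), in the order elemental control and MR, casein control and MR.

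Among the enzymes that modify elongation factors, Eef2k fell with casein and Eef1akmt1 fell with elemental amino acids. Eef2k encodes the kinase that inhibits eEF2. It ranged from 3.52 to 5.34 CPM (median 4.33) in the casein control and from 2.75 to 3.95 CPM (median 2.97) in casein MR, and fell by 0.47 (SE 0.15, edgeR adjusted p = 0.0241). In the elemental groups it ranged from 3.57 to 6.89 CPM (median 4.7) and from 2.99 to 4.34 CPM (median 3.82), a change of -0.39 ± 0.15 that missed the threshold (0.0908). The casein call was lost without library C_C_3413, C_C_3429 or C_MR_3419 (adjusted p up to 0.0743, without C_C_3413), and under library totals (-0.21, 0.243).

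Eef1akmt1, an eEF1A lysine methyltransferase, ranged from 8.95 to 13.7 CPM (median 12.7) in the elemental control and from 7.1 to 9.05 CPM (median 8.61) in elemental MR. It fell by 0.52 (SE 0.12, adjusted p = 0.00416), and the groups overlapped only narrowly. In the casein groups it ranged from 9.21 to 13.8 CPM (median 10.4) and from 7.02 to 10.1 CPM (median 8.69), with a change of -0.30 ± 0.12 (0.0688). Eef1aknmt, which methylates the start and a lysine of eEF1A, had the opposite sign. It rose by 0.44 ± 0.12 with casein (0.00959), from a median of 7.06 to 8.77 CPM, and stood at 0.34 ± 0.12 with elemental amino acids (0.0693). Eef1akmt2 and Eef2kmt were not called.

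Eef1a2 encodes the eEF1A form of muscle and neurons and gave almost no reads in liver, except in 1 library. It stood at 24 CPM (528 reads) in library C_MR_3438 and between 0 and 0.793 CPM in the other 23 libraries. The same library had a summed level of 2118 CPM over 11 skeletal muscle markers, against at most 75.9 CPM in any other library. All 10 of the muscle markers tested were called higher in casein MR. Yet the median sum was 10.8 CPM in casein MR and 12.3 CPM in the casein control, so the typical casein MR library was not higher. Without library C_MR_3438, Eif4ebp1 rose by 0.76 and Eif2s2 by 0.33 with casein, and 13 members were called (20.6%, against 21.4% of all genes in that fit).

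Few members were called in the comparisons of protein source, where the share called over all genes was low too. Between the control diets, none of 63 members was called by edgeR, DESeq2 or limma-voom, while 0.104% of all genes were called by edgeR. An unadjusted p under 0.05 was reached by 8 members (12.7%), against 11.7% of all genes. For the difference between the MR effects, none was called by any of the 3 tools, against 2.34% of all genes by edgeR. An unadjusted p under 0.05 was reached by 3 members (4.76%), against 12.3% of all genes. Between the MR diets, 2 members were called (3.17%, against 6.5% of all genes). Both were lower with casein (3.78% of all genes were), and none was higher (2.72% of all genes were). These were Eif3a (-0.30 ± 0.06, edgeR adjusted p = 0.000791) and Eif4e2 (-0.21 ± 0.06, 0.0396). Eif4e2 was called in 11 of 24 fits with 1 library left out, and its adjusted p reached 0.106 without library C_MR_3419. It was not called under library totals (-0.11, 0.361), upper quartile scaling or with only the 2 groups fitted (0.0658). Eif3a held in all 24. Eef2 was lower in every casein MR library than in every elemental MR library (-0.17 ± 0.06, 0.0753), as were 2.68% of all genes. Eif3a was lower with casein on the control diets too, where the groups did not overlap (-0.16 ± 0.06, adjusted p = 0.257), as happened for 0.32% of all genes. The interval of the difference lay within 1.5-fold for 58 of 63 members (92.1%), against 52.7% of all genes, which were not matched for read level.

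Lists of genes around these factors were counted as well. Over all genes tested, 6.78% rose and 6.64% fell with elemental amino acids, and 10.6% rose and 12.7% fell with casein. Of 16 tested genes of eIF2 phosphorylation and the integrated stress response, the program started by phosphorylated eIF2, 7 rose and none fell with elemental amino acids, and 7 rose and 1 fell (Gcn1) with casein. The list's median was 0.33 and 0.34. Asns, which encodes asparagine synthetase, rose by 3.23 ± 0.20 (edgeR adjusted p = 3.26e-11) and 5.01 ± 0.24 (6.81e-14). It was called lower in the casein control than in the elemental control and was not called between the MR diets. The larger rise with casein thus starts from a lower control. Atf5, a transcription factor of the program, rose by 0.91 ± 0.11 (2.99e-06) and 0.98 ± 0.11 (2.26e-07). Impact, which encodes a protein that holds GCN2 back, rose by 0.39 ± 0.13 (0.0446) and 1.01 ± 0.13 (8.2e-07). The list was drawn up with earlier results of these data known, so its direction is not independent evidence.

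Of 20 genes of mTORC1 and cap-binding control, 2 rose and 1 fell with elemental amino acids, and 4 rose and 1 fell with casein. That is near the share called over all genes (13.4% and 23.3%). Pdcd4, which encodes an inhibitor of the eIF4A helicase, fell by 0.51 (SE 0.09, edgeR adjusted p = 0.000293) and by 0.87 (SE 0.09, 3.79e-08). Deptor, an mTOR-binding inhibitor, rose by 0.33 ± 0.06 (0.00076) and 0.21 ± 0.06 (0.0145). Rragc, a Rag GTPase that recruits mTORC1 to lysosomes, rose by 0.30 ± 0.07 with elemental amino acids (0.00617). Mtor, Rps6kb1 and Larp1 were the others that rose with casein.

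The remaining lists held few calls. With 13.4% and 23.3% of all genes called, lists this short do not show whether they moved less than other genes. None of the 9 poly(A)-binding genes or the 6 termination factors was called in either comparison. Of 14 genes of alternative initiation, reinitiation and ribosome quality, Hbs1l, which encodes a ribosome rescue factor, rose with both protein sources (0.27 and 0.28, adjusted p = 0.00872 and 0.00306). Denr, a reinitiation factor gene, rose with casein (0.23, 0.00133). Of 7 genes that modify eIF5A and eEF2, Dohh, the second enzyme of hypusine synthesis, rose with elemental amino acids (0.29, 0.0306). Of 11 mitochondrial translation factors, Mtif3 fell by 0.26 with casein (0.00147).

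The amino acid response element, the letters TGATGNAA as searched on both strands, was sought in RefSeq promoter windows of GRCm38.p6, which reach from 250 bases before to 50 after each start. It occurred in 2 of 66 windows of the 51 members with an entry (3.03%), those of Eef2k and Eif2s3x, against 3.97% of 32851 windows of all genes. Eif4ebp1 and Eif4g2 had no entry. A match describes letters only.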

How the data were processed

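The authors deposited raw read counts per Ensembl gene, as whole numbers, and a normalized signal, which was checked to equal the counts divided by 1 size factor per library (0.745 to 1.32). Per the labels, total RNA from liver was used. The sources used here do not name an aligner, a counting tool, a strand or a genome build, and genome positions are left out for that reason. Every per-sample column was mapped to a library through its label.

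Tests were run with edgeR 4.0.16 in R 4.3.3. Low counts were removed by filterByExpr, which kept 99.93% of reads. Libraries were scaled by TMM, and 1 quasi-likelihood model with 4 group means was fitted to all 24. The biological coefficient of variation was 0.159. Benjamini and Hochberg's adjustment was made over 13441 genes within each comparison, with a threshold of 0.05 for a call. The F statistic and the fold change gave the standard error. CPM are counts divided by the TMM-scaled total, times 1 M. Levels per kilobase use union exon lengths from GENCODE M21.

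The comparisons were MR against control with each protein source, the casein effect minus the elemental effect, and the protein sources compared within the control diets and within the MR diets. No batch is named in the labels. The members, the 7 pathway lists and the 8 marker lists were chosen with earlier results of these data known. Values in full were given for a fixed list of regulators and core subunits, for the 6 members with the smallest p in each MR comparison, and for up to 4 called in the others. Other members named for a call or a count were chosen after their values were seen. At most 3 genes per pathway list were named by smallest p; the others complete a short count.

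Alternatives were DESeq2 1.42.0 size factors, upper quartile scaling, no filter, a minimum of 1 CPM, the DESeq2 Wald test, limma-voom (limma 3.58.1), 1 surrogate variable (sva 3.50.0), only the groups compared, a threshold of 0.01 and leaving out each library. Scaling by library totals was added after seeing the data. The fit was tested on simulated data. Of 50 genes changed 1.25-fold, 17 were recovered in the simulated elemental comparison and 12 in the simulated casein comparison. Of 50 changed 1.5-fold, 36 and 32 were recovered.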

Additional observations from a re-analysis of the deposited data

Results flagged for a closer look

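The levels of the 33 members chosen for full values were screened in the 4 diet groups, which gave 132 groups of 6 libraries. Of these, 7 held a library far from the other 5 by Dixon's criterion, a number that chance gives in about 1 of 20 groups. Eef1a2 stood at 24 CPM in library C_MR_3438, against 0 to 0.793 CPM in the others of that group, beside a skeletal muscle marker sum of 2118 CPM in that library. Eif4e3 was 10.3 CPM in the same library and 7.4 to 8.17 CPM in the others. Eif3b was 34.9 CPM in library C_MR_3431 and 39.6 to 42 CPM in the rest. Eif4a1 was 61.8 CPM in library E_MR_3405, against 46.2 to 50.8 CPM. Eif2ak4 was 9.05 CPM in library E_MR_3424, against 7.28 to 7.9 CPM. Eef1a1 was 666 CPM in library E_C_3401, above 558 to 591 CPM in the others. Eif6 was 35.5 CPM in library E_C_3427, below 40.3 to 41.4 CPM.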

How the results depend on the processing

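With 11 members called in the elemental MR comparison and 14 in the casein one, the counts stayed within 1.5 times of these under every alternative except the stricter threshold and library totals. At an adjusted p under 0.01, 7 and 9 members were called (11.1% and 14.3%, against 7.25% and 15.6% of all genes). Scaling by library totals only, added after seeing the data, called 29 and 51 (46% and 81%, against 24.8% and 48.4%). Under it, 20 members turned from negative to positive log2 values with casein, of which 12 were then called, and 13 turned with elemental amino acids, none of them called. Those with values in full and a call on either scale were Eif2b1 (0.25), Eif2b4 (0.22), Eif2b5 (0.21), Eif2s3x (0.25), Eif4a1 (0.26), Eif4e (0.20), Eif4e2 (0.08) and Eif5a (0.18). This follows from the shift of the median of all genes to 0.267. Leaving out 1 library gave 8 to 14 calls with elemental amino acids and 10 to 14 with casein. These fits include those that left out a library of the groups not compared. Between the MR diets, the 2 calls became 1 at the stricter threshold, under upper quartile scaling and with only the 2 groups fitted, and 1 to 2 with 1 library left out. The cause was not tested. For the difference between the MR effects and for the control diets, no member was called under any alternative run. Eif4ebp1, Eif4g2, Eif2s2, Eif5 and Eef1b2 were called in both MR comparisons in all 24 fits with 1 library left out and in all 9 other fits. Library totals, 1 of those 9, moved their values up and so was little test of these calls. No paired analysis was possible because the libraries of different groups share no numbers. Small changes were hard to detect on data simulated with the totals and spread of these libraries, where most of the smallest changes were missed. That simulation called 152 and 151 genes, against 1803 and 3137 in the real comparisons, so its recovery need not hold for the members. The amount by which an uncalled member may have changed is better read from its own interval. With elemental amino acids the interval ran from -0.10 to 0.12 for Eif3f and from 0.03 to 1.27 for Eef1akmt2.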
